A study of Rattus norvegicus with 8 samples.

Results

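The genes that encode the mitochondrial respiratory chain were read in primary rat chondrocytes given TNFα, U0126 (an inhibitor of MEK1/2), both or neither. The members are the genes whose symbols in the array's annotation name subunits of complexes I to IV and of the ATP synthase (symbols starting with Ndufa, Ndufb, Ndufc, Ndufs or Ndufv, the 4 Sdh genes, Uqcr, Cox4 to Cox8 followed by a letter, and Atp5). The rule found 86 of the 14217 genes that have a probe set naming no other gene, and each was read through its brightest such probe set. The rule used names only and no measured value. Of the 86 genes, 77 were counted as subunits of the 5 complexes: 34 of complex I, 4 of complex II, 7 of complex III, 17 of complex IV and 15 of the ATP synthase, called complex V here. Ndufa4l2 was counted under complex IV as a relative of its subunit NDUFA4. Whether its protein is part of that complex was not tested. The other members are 6 complex I assembly factors (Ndufaf1, Ndufaf3, Ndufaf4, Ndufaf5, Ndufaf7 and Ndufaf8), the ATP synthase inhibitor Atp5if1, the supercomplex factor Cox7a2l and the pseudogene Cox6c-ps1. A further 7 probe sets that name several genes were left out, among them those of Atp5mc1, Atp5mc2 and Cox7a2.

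Chondrocytes were taken from the femoral condyles of newborn Sprague Dawley rats, grown to confluence and kept without serum overnight. Cultures of all groups then received either DMSO, the solvent of the inhibitor, or U0126 for 30 min, and after that either the BSA vehicle or 30 ng/ml human TNFα for 24 h. This gave 4 groups: DMSO with vehicle, U0126 with vehicle, DMSO with TNFα, and U0126 with TNFα, named DMSO, U0126, TNFα and U0126+TNFα below. Each group has 2 biological replicates, 1 Affymetrix RAT230_2.0 array each, and arrays with the same replicate number are taken as 1 experiment. A fold is the ratio of 2 arrays of the same experiment. The values are probe set intensities on a linear scale, brought to a common array median, and an intensity is not comparable between probe sets.

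The chondrocyte markers measured (8 of 9, among them Col2a1, Acan and Matn1) ranked between the 97.86 and 99.96 percentiles of all genes by mean intensity, and TNFα lowered 6 of the 8 in limma (3 to 5 when any 1 array was left out). With only the 4 arrays compared TNFα lowered 1 of the 8, and with no term for experiment 0. With all 8 arrays 5.19% of all probe sets passed in either direction. Of the fibroblast or synovial lining markers, Col1a1 ranked at 99.99, Col1a2 at 99.82, Pdpn at 97.47 and Thy1 at 65.25. The adipocyte marker Fabp4 ranked at 89.94. Such ranks set intensities of different probe sets side by side, which are not strictly comparable. The experiments differed in marker levels, and the ranges that follow are summed intensities over a list. The chondrocyte markers gave 121723 to 169901 on the arrays of experiment 1 and 80237 to 116830 on those of experiment 2, and all 8 genes were higher in experiment 1, by 1.18-fold to 2.32-fold. The 4 adipocyte markers gave 1715 to 2601 and 13183 to 19570, and the 4 fibroblast or synovial lining markers 61634 to 63199 and 69017 to 71066. The 6 skeletal muscle markers gave 959 to 1053 and 1056 to 1212, and the 3 endothelial markers 387 to 409 and 632 to 815. Genes higher in experiment 1 were 0 of the 4 adipocyte and 1 of the 4 fibroblast or synovial lining markers. They were 2 of the 6 muscle and 2 of the 3 endothelial markers, whose sum followed Tek (150 to 186 and 384 to 600). The sums of the 6 macrophage markers overlapped between experiments and were highest with TNFα, at 2699 to 2731. They were 1781 to 2366 with DMSO, 1733 to 2011 with U0126 and 1783 to 2030 with both. By mean log2 fold, 3 of the 6 lay higher with TNFα than with DMSO, and Csf1r, Itgam and Ptprc did not. Of the 4 fibroblast or synovial lining markers, 1 lay higher. Of these 5 lists of other cells' markers, TNFα raised Cd68 of macrophages (1.80-fold, adjusted p = 0.0228 in limma) and Pdpn of fibroblasts or synovial lining (1.49-fold, 0.0291), and lowered Plin1 of adipocytes (0.763, 0.0486) and the muscle genes Acta1 and Tnnt3. The Cd68 call was lost without either array of DMSO or of U0126 (adjusted p of 0.0502 to 0.0976), that of Pdpn without either array of DMSO or U0126+TNFα or replicate 1 of TNFα (0.0605 to 0.140), and that of Plin1 without any 1 array other than replicate 2 of TNFα (0.0773 to 0.215). The ratio of the 3' to the 5' probe set of the hexokinase control, which rises as RNA is degraded, was 3.39 to 3.62 in experiment 1 and 4.48 to 8.74 in experiment 2. That of the GAPDH control was 1.13 to 1.17 in experiment 1 and 1.21 to 1.33 in experiment 2. That of the actin control overlapped, at 1.43 to 1.57 and 1.53 to 1.85. The part that these differences between experiments and treatments have in the results below was not tested, and in RNA of a whole culture fewer cells of a type and less RNA per cell cannot be told apart.

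The respiratory chain passes electrons from NADH (complex I) and succinate (complex II) through ubiquinone to complex III, through cytochrome c to complex IV, and on to oxygen. Complexes I, III and IV pump protons across the inner membrane, and the ATP synthase uses the proton gradient to make ATP. Most subunits are encoded in the nucleus and a few core subunits in the mitochondrial DNA. Cartilage has no blood supply, and chondrocytes are known for meeting most of their ATP demand by glycolysis, with a small share from respiration. Several complex IV subunits have more than 1 gene, with a common isoform and another that is restricted to heart, muscle, lung or testis or is raised by low oxygen. Nuclear genes of the chain are known targets of NRF-1, of the ETS factor GABP (also called NRF-2) and of YY1.

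Upstream sequence of the member genes was read from RefSeq promoters (GRCr8) with 250 bases before and 50 bases after each transcript start, which held 78 of the 86 members. Those without an entry were Ndufa8, Ndufb9, Uqcr11, Cox4i2, Cox6a1, Cox6c, Cox6c-ps1 and Atp5pd. Exact letters were searched on both strands. The motif AAGATGGC, the core of YY1 sites, lay in 17 of the 78 windows (21.8%), in 3.17% of all 33469 promoters and in 4.72% of the 11700 promoters of genes read on the array. In 14 of the 17 it was written in the direction of transcription and began no earlier than 1 base before the transcript start. The motif CCGGAAG of ETS factors lay in 22 windows (28.2%), against 8.75% of all promoters and 15.1% of those of the array's genes. The NRF-1 core TGCGCA lay in 20 (25.6%, against 7.24% and 11.9%), and the full palindrome GCGCATGCGC in 5 (6.41%, against 0.852% and 1.62%). At least 1 of AAGATGGC, CCGGAAG and TGCGCA lay in 46 of the 78 (59.0%) and in 27.6% of the promoters of the array's genes. The core overlaps the palindrome where A follows it or T precedes it, and CCGGAAG and AAGATGGC can share 3 letters. The hypoxia response core ACGTG lay in 20 of the 78 (25.6%), against 19.3% of all promoters and 24.1% of those of the array's genes. The GC box GGGCGG lay in 34 (43.6%), against 33.1% and 57.5%. These matches describe the letters of the windows and say nothing of binding. The letters AAGATGGC include ATG, the letters of a start codon, and whether copies mark the start of translation was not tested.

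The 5 stretches with the full NRF-1 palindrome, all of them upstream of the transcript start, are printed to show its setting in genes of complex I, of its assembly factors and of the ATP synthase, with the palindrome in capitals. They lie at chr9:1637502-1637541, plus strand (Ndufa11), at chr5:43401622-43401661, plus strand (Ndufaf4), at chr3:147961582-147961611, plus strand (Ndufaf5), at chr14:1464769-1464808, plus strand (Atp5me) and at chr11:44657518-44657557, minus strand (Atp5po). In Ndufa11 another copy overlaps it.
Ndufa11: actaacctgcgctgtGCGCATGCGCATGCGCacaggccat
Ndufaf4: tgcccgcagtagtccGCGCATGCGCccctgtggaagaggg
Ndufaf5: gtcgtagtccctttgGCGCATGCGCacaat
Atp5me: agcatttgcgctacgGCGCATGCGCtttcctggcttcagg
Atp5po: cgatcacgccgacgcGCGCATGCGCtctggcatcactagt

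Stretches of at most 30 bases around AAGATGGC at the transcript start are shown for genes of complexes I, II and III and for Ndufa4l2, whose level varied most between arrays, with the motif in capitals. They lie at chr2:47794892-47794921, minus strand (Ndufs4), at chr7:10110476-10110505, minus strand (Ndufs7), at chr13:86098004-86098033, minus strand (Sdhc), at chr8:118468211-118468240, plus strand (Uqcrc1) and at chr7:65242157-65242186, plus strand (Ndufa4l2). The same 8 letters stand at the start of genes of steady level and of Ndufa4l2.
Ndufs4: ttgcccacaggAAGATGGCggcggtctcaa
Ndufs7: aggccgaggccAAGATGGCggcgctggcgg
Sdhc: ggccggaactcAAGATGGCtgcgctcttgc
Uqcrc1: acggaagttagAAGATGGCggcgtccgcag
Ndufa4l2: gacactggaacAAGATGGCaggaaccagtc

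The 250 bases before the start are printed for Ndufa4 (chr4:40975560-40975809, minus strand), Ndufa4l2 (chr7:65241919-65242168, plus strand), Cox4i1 (chr19:65630133-65630382, plus strand) and Cox6a2 (chr1:192219717-192219966, minus strand), since the results below turn on these isoforms. Capitals mark any of the 6 motifs searched on either strand. Cox4i1 holds GGGCGG on each strand and ACGTG sharing 1 base with a GC box, Ndufa4l2 holds 1 GC box, and the Ndufa4 and Cox6a2 stretches hold none of the letters searched.
Ndufa4: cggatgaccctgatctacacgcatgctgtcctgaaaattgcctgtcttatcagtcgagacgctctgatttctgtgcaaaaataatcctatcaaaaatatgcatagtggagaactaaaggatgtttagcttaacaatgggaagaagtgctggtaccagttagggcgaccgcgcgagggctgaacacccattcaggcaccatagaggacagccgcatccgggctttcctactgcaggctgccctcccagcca
Ndufa4l2: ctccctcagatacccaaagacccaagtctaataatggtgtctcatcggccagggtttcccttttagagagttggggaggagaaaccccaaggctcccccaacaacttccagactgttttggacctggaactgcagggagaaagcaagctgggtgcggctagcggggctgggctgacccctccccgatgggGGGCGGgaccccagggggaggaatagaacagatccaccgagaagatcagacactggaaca
Cox4i1: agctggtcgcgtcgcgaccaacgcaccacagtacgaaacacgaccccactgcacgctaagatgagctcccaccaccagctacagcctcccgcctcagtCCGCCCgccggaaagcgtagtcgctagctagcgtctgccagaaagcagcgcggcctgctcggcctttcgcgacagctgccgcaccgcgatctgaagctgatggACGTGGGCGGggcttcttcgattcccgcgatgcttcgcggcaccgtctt
Cox6a2: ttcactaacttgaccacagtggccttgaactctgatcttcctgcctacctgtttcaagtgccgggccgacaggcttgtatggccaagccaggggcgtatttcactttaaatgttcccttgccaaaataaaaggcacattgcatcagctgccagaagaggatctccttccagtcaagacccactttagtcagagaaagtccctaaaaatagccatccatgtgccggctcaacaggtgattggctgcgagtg

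TNFα left the respiratory chain transcripts near their level in DMSO-treated chondrocytes after 24 h. None of the 86 genes passed limma in TNFα over DMSO (0 of 86 at an adjusted p under 0.05, where 5.19% of all probe sets passed), and 6 of 86 had an unadjusted p under 0.05 (25.9% of all probe sets): Cox4i2 and Cox6a2 above DMSO, and Ndufb2, Ndufv3, Ndufa12 and Cox8b below it. The smallest adjusted p was 0.0661, for Cox4i2. For 83 of 86 genes the 95% interval of the fold lay wholly within 1.45-fold of DMSO in either direction, against 87.5% of all genes and 86.8% of the 5774 genes with a mean intensity over 1000. The fold of 1.45 is the threshold the methods set for a regulated probe set. Cox4i2, Cox6a2 and Ndufa4l2, all counted under complex IV, were the 3 genes whose interval reached past it.

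The log2 fold was under 0.1 in size in 68 of 86 genes and over 0.2 in 4. The median over the 86 genes was -0.017, with quartiles of -0.057 and 0.039, and the median over all genes was -0.011, with quartiles of -0.12 and 0.11. The median was -0.023 in experiment 1 and -0.0012 in experiment 2. After median centring 35 genes lay above DMSO and 51 below, and after quantile normalization 11 and 75, with a median of -0.087 against -0.041 for all genes. A shared shift of this size thus depended on the scaling.

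**Figure D1:**
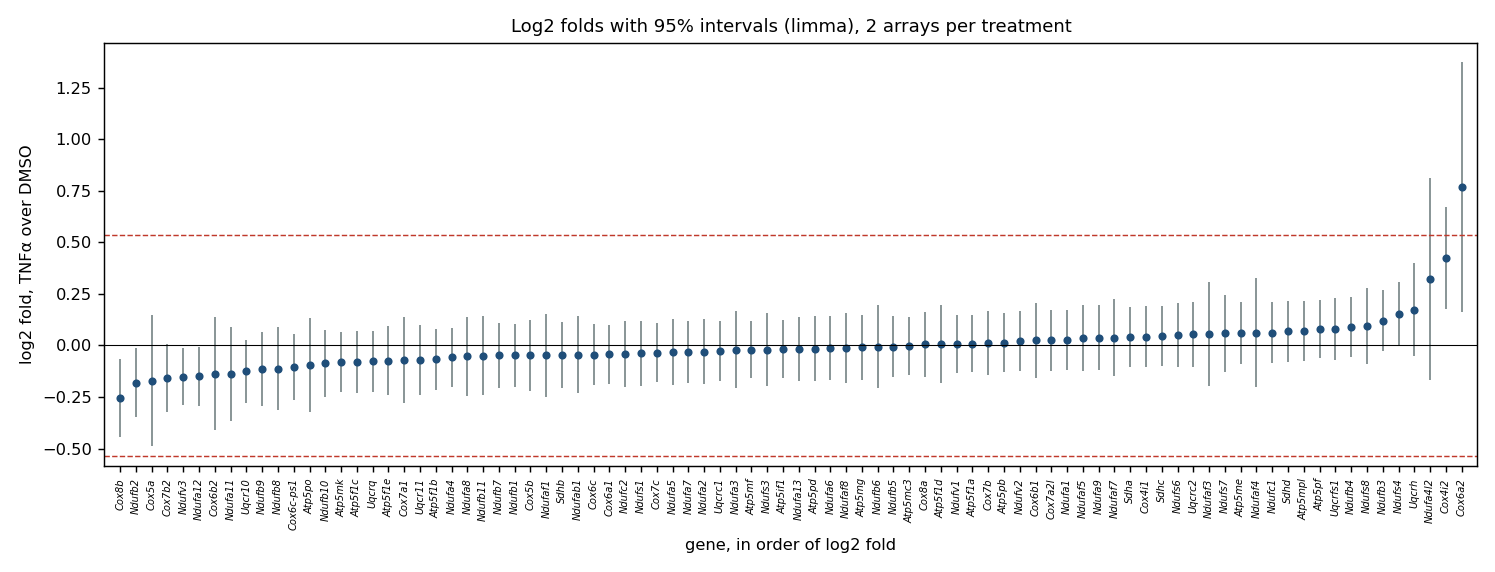
Log2 fold of each of the 86 genes in TNFα over DMSO (points) with its 95% interval from limma (vertical lines), genes in order of their fold, and the 1.45-fold threshold as dashed lines. The intervals of 83 genes stay between the dashed lines, and those of Ndufa4l2, Cox4i2 and Cox6a2 reach past the upper one.

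U0126 alone, which blocks basal MEK1/2 activity, also left the transcripts near their DMSO level. limma called 0 of 86 genes (0.058% of all probe sets), with 2 of 86 under an unadjusted p of 0.05 (13.3% of all probe sets), Cox4i2 and Ndufa4l2, both below DMSO. The interval stayed within 1.45-fold for 82 of 86 genes (93.4% of all genes), the exceptions being Cox4i2, Cox5a, Cox6a2 and Ndufa4l2. The median log2 fold was 0.012, beside 0.006 for all genes, and it was -0.026 after quantile normalization, so its sign was not settled.

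In U0126+TNFα over U0126, the response to TNFα with MEK1/2 blocked, limma called 0 of 86 genes (1.24% of all probe sets), with 2 of 86 under an unadjusted p of 0.05 (12.5%), Cox4i2 above and Ndufb2 below. The interval stayed within 1.45-fold for 84 of 86 genes (91.0% of all genes), all but Cox6a2 and Ndufa4l2. Here 60 of 86 genes lay below U0126, and 65 after quantile normalization, with a median log2 fold of -0.029 beside -0.0084 for all genes. The median was -0.046 in experiment 1 and -0.0066 in experiment 2.

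In U0126+TNFα over TNFα, which asks what blocking MEK1/2 does in the presence of the cytokine, limma called 0 of 86 genes (0.254% of all probe sets). An unadjusted p under 0.05 was reached by 4 of 86 (12.7%), Cox6b2 and Sdhb above TNFα and Cox4i2 and Ndufa4l2 below it. The interval stayed within 1.45-fold for 82 of 86 genes (91.3% of all genes), all but Cox4i2, Cox6a2, Cox6b2 and Ndufa4l2. The response to TNFα with U0126 minus that without it, tested as an interaction in limma, passed for 0 of 86 genes (0.0% of all probe sets), and for 1 of 86 at an unadjusted p under 0.05 (9.13%), Cox8b. Its interval stayed within 1.45-fold for 81 of 86 genes (83.6% of all genes).

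**Figure D2:**
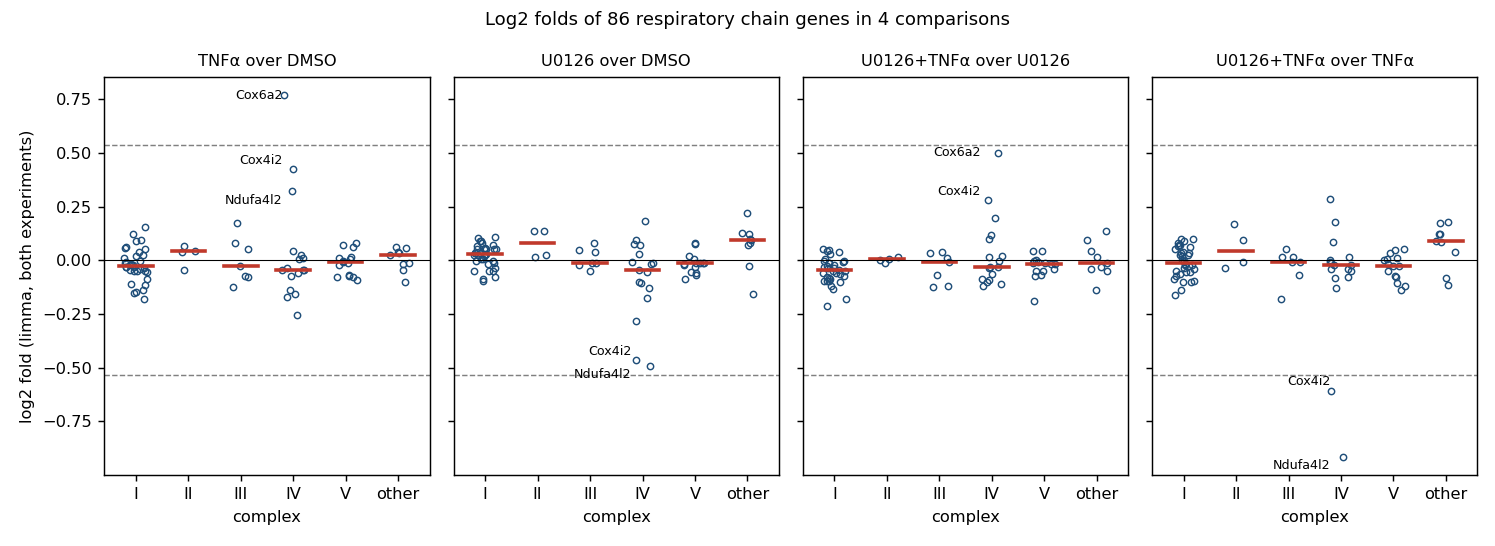
Log2 folds of the 86 genes (circles) in 4 comparisons by complex, with the median of each group as a red bar and the 1.45-fold threshold as dashed lines; the 9 members that are no subunit are under other. Complexes I, II, III and V stay between -0.21 and 0.17 in all 4 panels, and the genes that lie apart are Ndufa4l2, Cox4i2 and Cox6a2, counted under complex IV.

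Complex I takes electrons from NADH and is the largest complex of the chain. Its 34 genes had log2 folds between -0.18 (Ndufb2) and 0.15 (Ndufs4) in TNFα over DMSO, with a median of -0.026, and between -0.21 (Ndufb2) and 0.052 (Ndufv2) in U0126+TNFα over U0126, with a median of -0.048. In the latter 28 of the 34 lay below U0126, and 29 after quantile normalization. The median was -0.083 in experiment 1 and -0.013 in experiment 2, so it rested mostly on experiment 1. The nuclear genes of the catalytic core that were measured were Ndufs1, Ndufs3, Ndufs7, Ndufs8, Ndufv1 and Ndufv2, and their folds for TNFα lay between -0.037 (Ndufs1) and 0.094 (Ndufs8) on the log2 scale.

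Ndufb2, an accessory subunit of the membrane arm, was the gene of complex I with the lowest fold. Its intensity was 5512 and 5912 under DMSO in experiments 1 and 2, 5533 and 5854 under U0126, 4616 and 5496 under TNFα, and 4545 and 5318 under U0126+TNFα. The 4 arrays with TNFα all lay below the 4 arrays without it. The log2 fold was -0.18 ± 0.071 (SE) without U0126 and -0.21 ± 0.071 with it, at adjusted p of 0.169 and 0.280 in limma.

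Ndufs4, an accessory subunit needed for stable complex I, had the highest fold of the complex for TNFα. It read 1948 and 1946 under DMSO and 2275 and 2061 under TNFα, a log2 fold of 0.15 ± 0.065 (SE, adjusted p = 0.195 in limma). With U0126 it read 2027 and 1937, and 2031 and 2007 when TNFα followed, a log2 fold of 0.027. The response with U0126 minus that without it was -0.13 ± 0.092 (SE, adjusted p = 0.68 in limma). The TNFα arrays were the 2 highest of the 8. Ndufa11, a membrane arm subunit whose promoter holds the overlapping palindromes printed above, read 5393 and 5116 under DMSO, 4475 and 5097 under TNFα, 5089 and 4755 under U0126 and 4033 and 4665 under U0126+TNFα. Its TNFα folds were 0.83 in experiment 1 and 1.00 in experiment 2, so the lower level rested on experiment 1.

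Complex II, succinate dehydrogenase, links the chain to the citric acid cycle and is encoded wholly in the nucleus. Sdha, its flavoprotein, lay between 3641 and 3994 on the 8 arrays, and Sdhd, a membrane anchor, between 4478 and 4946. Sdhb, the iron-sulphur subunit, read 5313 and 5074 under DMSO, 5580 and 5848 under U0126, 4924 and 5144 under TNFα and 5465 and 5849 under U0126+TNFα. The arrays with U0126 lay above those without it, whether or not TNFα was given. Its log2 fold was 0.14 ± 0.067 (SE) in U0126 over DMSO and 0.17 ± 0.067 in U0126+TNFα over TNFα, at adjusted p of 0.421 and 0.371 in limma. Sdhc, the other anchor, had log2 folds of 0.13 and 0.096 in the same comparisons (adjusted p = 0.402 and 0.575 in limma).

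Complex III passes electrons from ubiquinol to cytochrome c. Its core proteins Uqcrc1 and Uqcrc2 ranged from 4805 to 5555 and from 5330 to 5924, and the Rieske iron-sulphur protein Uqcrfs1 from 5661 to 6401. The hinge protein Uqcrh was the widest of the group after Uqcr11. It read 6098 and 7083 under DMSO, 7831 and 7015 under TNFα, 6283 and 6685 under U0126 and 6635 and 6442 under U0126+TNFα. Its TNFα fold was 1.28 in experiment 1 and 0.990 in experiment 2. The log2 folds of the 7 genes lay between -0.18 and 0.17 in the 4 comparisons of treatments.

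Complex V, the ATP synthase, has a catalytic F1 part and a membrane part with a turning ring. The catalytic F1 subunits Atp5f1a and Atp5f1b ranged from 11768 to 12295 and from 14148 to 15647 on the 8 arrays, and Atp5mc3, which encodes the c subunit of the rotor ring, from 11262 to 12633. For Atp5f1a the highest array was 1.05-fold above the lowest. The 15 genes had log2 folds between -0.093 (Atp5po) and 0.079 (Atp5pf) for TNFα. After U0126 the TNFα fold of Atp5po, the stalk subunit that joins F1 to the membrane part, was 0.783 in experiment 1 and 0.985 in experiment 2. Its log2 fold was -0.19 ± 0.096 (SE, adjusted p = 0.490 in limma). Atp5if1, which blocks the enzyme when it runs backwards, stayed between 2447 and 2663.

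Complex IV, cytochrome c oxidase, reduces oxygen and held the genes that varied. Over all 8 arrays the highest array was within 1.45-fold of the lowest for 81 of 86 genes (94.2%), against 75.4% of all genes and 73.6% of genes with a mean intensity over 1000. The 5 genes beyond were Ndufa4l2 (10.8-fold), Cox4i2 (4.45-fold), Cox6a2 (3.27-fold), Cox6b2 (1.94-fold) and Cox5a (1.59-fold), all counted under complex IV. Of these, Cox6b2 read only 40 to 78, and the Cox5a probe set 459 to 730. Just inside the threshold lay the assembly factor Ndufaf3, at 1.445-fold. Over 2-fold were 3 members, beside 8.27% of all genes. Of the 17 complex IV genes, the common subunits Cox4i1, Cox5b, Cox6a1, Cox6b1, Cox6c, Cox7c, Cox8a and Ndufa4 each stayed within 1.20-fold, and Cox7b, at 6269 to 8024, within 1.28-fold.

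Ndufa4l2 encodes a relative of the complex IV subunit NDUFA4 and is known as a gene that low oxygen raises. Its intensity with DMSO was 2279 in experiment 1 and 650 in experiment 2. It read 1832 and 409 under U0126, 4060 and 570 under TNFα, and 1726 and 377 under U0126+TNFα. Each array of experiment 1 lay above each array of experiment 2, and within each experiment the U0126+TNFα array was the lowest. Its mean over the treatments was 4.76-fold higher in experiment 1, and 3 of the 14217 genes (0.0211%) had a ratio at least as high.

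Ndufa4l2 was the 1 member that passed the fold rule, a change of at least 1.45-fold that goes one way in each experiment, in U0126+TNFα over TNFα (0.763% of all probe sets passed this rule, and 0.506% toward a lower level). Its fold was 0.425 in experiment 1 and 0.662 in experiment 2, a log2 fold of -0.91 ± 0.21 (SE, adjusted p = 0.150 in limma), so it did not pass the test. U0126 over DMSO gave folds of 0.804 and 0.629 (log2 fold -0.49 ± 0.21, adjusted p = 0.376). TNFα over DMSO gave 1.78 in experiment 1 and 0.877 in experiment 2, opposite directions. After U0126, TNFα gave 0.942 and 0.923. The same rule passed 0 of 86 members in TNFα over DMSO (2.02% of all probe sets), in U0126 over DMSO (0.29%) and in U0126+TNFα over U0126 (1.21%).

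Ndufa4, the common relative, read 8887 and 9583 under DMSO, 8384 and 8855 under U0126, 8473 and 9276 under TNFα and 7986 and 8232 under U0126+TNFα. It had no such difference between the experiments, and its log2 fold in U0126+TNFα over TNFα was -0.13 ± 0.061 (SE, adjusted p = 0.443 in limma).

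Cox4i2 encodes the alternative form of subunit 4, found in lung and raised by low oxygen in other cells. It read 3191 and 1469 under DMSO, 2293 and 1072 under U0126, 4770 and 1766 under TNFα and 2702 and 1342 under U0126+TNFα. In both experiments the order of the treatments was the same, with U0126 lowest, U0126+TNFα and DMSO next, and TNFα highest. The level in experiment 1 was 2.24-fold that in experiment 2, the experiment with the lower chondrocyte and higher adipocyte markers. The part of these markers in the levels of Cox4i2 and Ndufa4l2 was not tested.

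The log2 fold of Cox4i2 was 0.42 ± 0.10 (SE) in TNFα over DMSO, with folds of 1.50 and 1.20 in experiments 1 and 2 and a 95% interval of 1.13 to 1.59 (adjusted p = 0.0661 in limma). U0126 over DMSO gave -0.47 ± 0.10, with folds of 0.719 and 0.730 (adjusted p = 0.234). U0126+TNFα over TNFα gave -0.61 ± 0.10, with folds of 0.566 and 0.760 (adjusted p = 0.0856). The TNFα response with U0126 minus that without it was -0.14 ± 0.15 (adjusted p = 0.775), with an interval of 0.712 to 1.15 as a fold. None of these passed the threshold, and over 15 alternative fits the adjusted p lay between 0.0167 and 0.863 for TNFα and between 0.0196 and 1.0 for U0126+TNFα over TNFα. The common form Cox4i1 stayed between 12519 and 13431 on the 8 arrays, with a log2 fold of 0.043 ± 0.063 for TNFα and 0.0002 ± 0.063 in U0126+TNFα over TNFα.

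Cox6a2 encodes the heart and muscle form of subunit 6a. It read 420 and 313 under DMSO, 461 and 368 under U0126, 1022 and 373 under TNFα, and 672 and 506 under U0126+TNFα. The TNFα array of experiment 1 stood apart from the other 7. TNFα over DMSO gave 2.43-fold in experiment 1 and 1.19-fold in experiment 2, a log2 fold of 0.77 ± 0.26 (SE, adjusted p = 0.124 in limma). After U0126, TNFα gave 1.46-fold and 1.37-fold (log2 fold 0.50 ± 0.26, adjusted p = 0.489). U0126+TNFα over TNFα gave 0.658 and 1.36, opposite directions. Of the 6 skeletal muscle markers, Myog lay between 356 and 416 on the 8 arrays, Tnnt3 between 250 and 440, Myh3 between 119 and 138, Ckm between 109 and 127, Acta1 between 46 and 62 and Myh2 between 35 and 46. None of the 6 rose with TNFα in limma, and 2 fell (Acta1 and Tnnt3), calls lost without any 1 array (adjusted p of 0.0666 to 0.176), except that of Tnnt3 without replicate 2 of TNFα. The common form Cox6a1 ranged from 8028 to 9549, with a log2 fold of -0.043 ± 0.061 for TNFα.

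**Figure D3:**
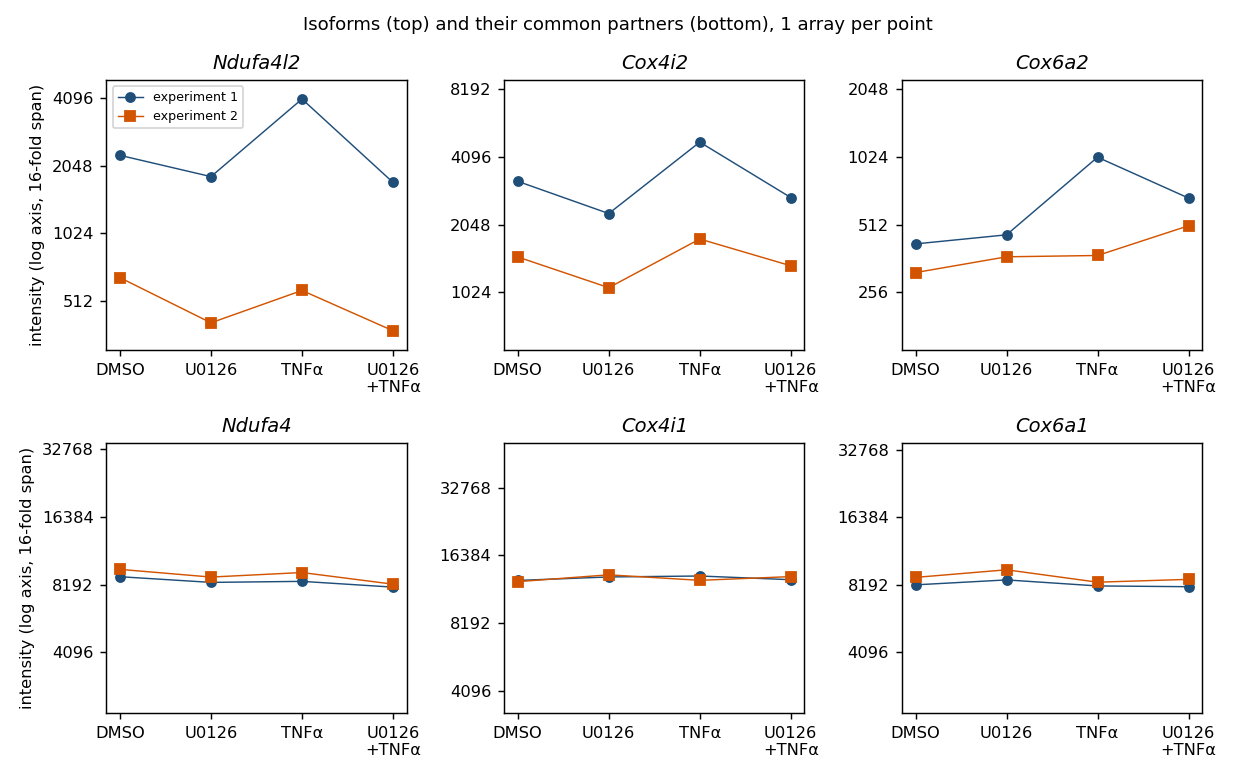
Intensity of 3 complex IV isoforms (top) and of their common partners (bottom) on each array, 1 point per array, with lines joining the arrays of an experiment; each log axis spans 16-fold, and levels are not comparable between panels. Ndufa4l2, Cox4i2 and Cox6a2 differ between experiments and treatments, while Ndufa4, Cox4i1 and Cox6a1 stay within 1.20-fold.

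Leaving out the TNFα array of experiment 2 let these 3 isoforms pass limma in both comparisons that use it: Cox6a2 (2.46-fold, adjusted p = 0.0017), Cox4i2 (1.52-fold, 0.0167) and Ndufa4l2 (1.64-fold, 0.0425) above DMSO, and Ndufa4l2 (fold of 0.405, 0.018), Cox4i2 (0.580, 0.0196) and Cox6a2 (0.652, 0.0343) lower in U0126+TNFα than in TNFα. The TNFα group then holds 1 array, which is assumed to vary like the other groups. In that fit 4.95% of all probe sets passed for TNFα over DMSO and 1.34% for U0126+TNFα over TNFα. Cox6a2 also passed in U0126+TNFα over U0126 when either TNFα array was left out (adjusted p = 0.0231) and when only the 4 arrays compared were fitted (adjusted p = 0.0169), at the same log2 fold of 0.50. The 3 calls therefore turn on 1 array and were not made with all 8.

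**Figure D4:**
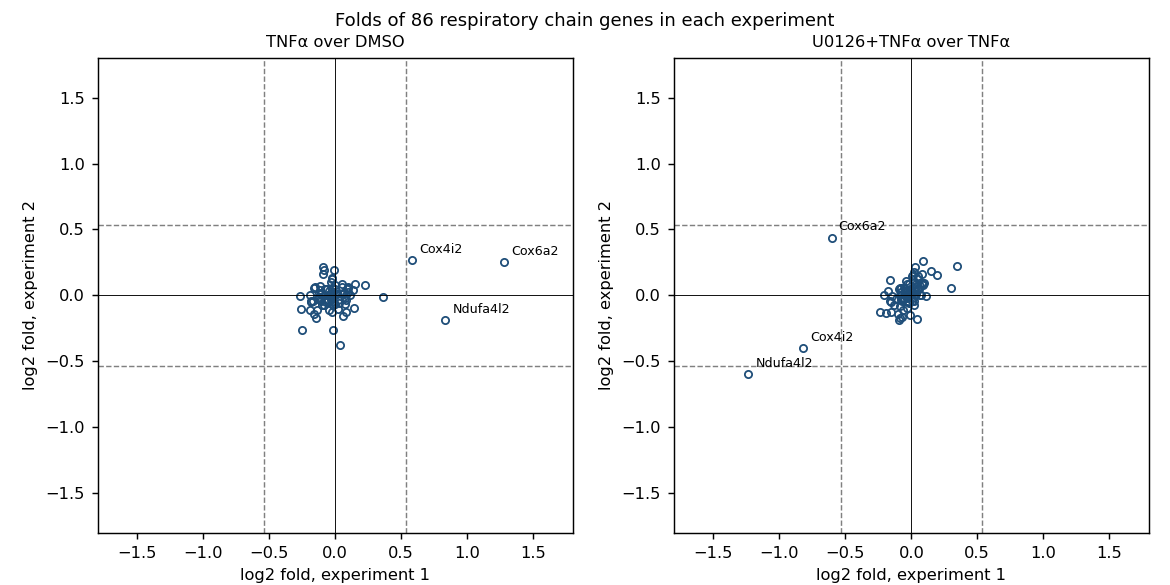
Log2 fold in experiment 1 (horizontal) against experiment 2 (vertical) for the 86 genes, in TNFα over DMSO (left) and U0126+TNFα over TNFα (right), with the 1.45-fold threshold as dashed lines. Most genes lie near the origin, Cox6a2, Ndufa4l2 and Cox4i2 pass the threshold in experiment 1 for TNFα, and Ndufa4l2 passes it in both experiments in U0126+TNFα over TNFα.

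Other restricted forms of complex IV were dim, and no detection calls were used. Cox6b2, the testis form of subunit 6b, read 40 to 78, higher on all 4 arrays of experiment 1 than on those of experiment 2, and its log2 fold was 0.28 ± 0.12 (SE, adjusted p = 0.376 in limma) in U0126+TNFα over TNFα. Cox8b, the heart and muscle form of subunit 8, read 120 and 121 under DMSO, 109 and 105 under U0126, 101 and 101 under TNFα and 124 and 105 under U0126+TNFα. Both TNFα arrays lay below both DMSO arrays, with a log2 fold of -0.25 ± 0.080 (SE, adjusted p = 0.112), and the response with U0126 minus that without was 0.35 ± 0.11 (adjusted p = 0.525). Cox7a1, the heart and muscle form of subunit 7a, lay between 332 and 415, and Cox7b2 between 60 and 75. The Cox5a probe set read here gave 459 to 730, with both ends set by the 2 DMSO arrays. A brighter probe set that names Cox5a among several genes was not used. Its mean intensity was 7862, and its log2 folds lay between 0.047 and 0.083 in the 4 comparisons of treatments.

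Assembly factors build complex I from its modules and leave the finished enzyme. The 6 measured had a median log2 fold of 0.11 in U0126 over DMSO and 0.12 in U0126+TNFα over TNFα, and 5 of 6 lay above the group without U0126 in each, also after quantile normalization, where the medians were 0.056 and 0.13. In experiments 1 and 2 the medians were 0.049 and 0.17 for the former and 0.056 and 0.16 for the latter. Ndufaf3 read 1706 and 1267 under DMSO and 1831 and 1603 under U0126, a log2 fold of 0.22 ± 0.11 (SE, adjusted p = 0.415 in limma). Ndufaf7, a methyltransferase of complex I assembly, had a log2 fold of 0.18 ± 0.078 in U0126+TNFα over TNFα (adjusted p = 0.414). None of the 6 passed the test. Other mitochondrial lists also lay higher in U0126 over DMSO: 16 of 17 citric acid cycle and pyruvate dehydrogenase genes (median 0.094) and 31 of 40 other assembly factors (0.062). In U0126+TNFα over TNFα 14 of the 17 (0.092) and 24 of the 40 (0.019) lay above TNFα. Of 14 electron carriers and genes of ubiquinone synthesis, 6 lay higher in each comparison.

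Low oxygen is the known setting in which Ndufa4l2 and Cox4i2 are raised, so 12 hypoxia-responsive genes were read beside them. In TNFα over DMSO 3 of 12 rose in limma and 0 fell (5.19% of all probe sets passed in either direction): Egln3, an oxygen-sensing hydroxylase (log2 fold 1.80 ± 0.14 SE, adjusted p = 0.0015), Adm, which encodes adrenomedullin (1.52 ± 0.20, 0.0106), and Ldha, lactate dehydrogenase A (0.32 ± 0.060, 0.0327). The Ldha call was lost when any 1 of the 8 arrays was left out (adjusted p of 0.0697 to 0.150), and the Adm call without replicate 1 of DMSO (0.0658). Without replicate 2 of TNFα, 6 of 12 rose. The list median was 0.31, at 0.58 in experiment 1 and 0.20 in experiment 2. In U0126+TNFα over TNFα 0 of 12 passed (0.254% of all probe sets), and all 12 lay below TNFα, also after quantile normalization, with a median of -0.84 in experiment 1 and -0.26 in experiment 2. The glucose transporter gene Slc2a1 was 1.78-fold higher in experiment 1 and Bnip3, a mitophagy receptor, 1.75-fold, while Adm was lower there (0.686). What part oxygen in the cultures had in the levels of Ndufa4l2 and Cox4i2 was not tested.

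Other mitochondrial lists were read in the same fit, where 5.19% of all probe sets passed for TNFα over DMSO. That comparison called 0 of 14 electron carriers and genes of ubiquinone synthesis, 0 of 17 genes of the citric acid cycle and pyruvate dehydrogenase and 0 of 23 import genes. Of 46 genes of cytosolic ribosomal proteins, read beside them, it called 0. The 2 measured genes of mitochondrial DNA, COX1 and COX2, which encode the catalytic core of complex IV, had log2 folds of -0.039 ± 0.061 (SE) and -0.0046 ± 0.059. Among 73 mitochondrial ribosomal proteins Mrps12 rose (log2 fold 0.40, adjusted p = 0.0326 in limma) and Mrps6 fell (-0.65, 0.0028), and Mrps6 also fell with TNFα after U0126 (-0.46, 0.020). The Mrps12 call was lost without any 1 array (adjusted p of 0.0525 to 0.120), and that of Mrps6 after U0126 without any 1 of the 4 arrays compared (0.173 to 0.187).

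Of 40 other assembly factors 2 rose with TNFα (5.19% of all probe sets passed in either direction), a share near that of all probe sets. Sdhaf1, which helps to insert the iron-sulphur clusters of complex II, read 1831 and 1872 under DMSO, 2908 and 3165 under TNFα, 1919 and 1966 under U0126 and 2701 and 2904 under U0126+TNFα. All 4 arrays with TNFα lay above all 4 without it. Its log2 fold was 0.71 ± 0.062 (SE, adjusted p = 0.0025 in limma) without U0126 and 0.53 ± 0.062 (adjusted p = 0.0145) with it, and for TNFα over DMSO it passed in 14 of 15 alternatives. After U0126 it did not pass without any 1 of the 4 arrays compared (adjusted p of 0.125 to 0.166). Higd1a, a hypoxia-induced factor of complex IV and of supercomplexes, rose by a log2 fold of 0.55 ± 0.080 (adjusted p = 0.0149), a call lost without either DMSO array or replicate 1 of TNFα (0.0671 to 0.0818).

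Among 22 regulators of mitochondrial gene expression, 1 was called with TNFα (5.19% of all probe sets passed in either direction), a share near that of all probe sets. This was Ppargc1a, the coactivator PGC-1α, which fell. It read 543 and 534 under DMSO and 385 and 397 under TNFα, a log2 fold of -0.46 ± 0.064 (SE, adjusted p = 0.0128 in limma). Under U0126 it read 487 and 518, and 450 and 485 when TNFα followed, a log2 fold of -0.10 ± 0.064 (adjusted p = 0.572 in limma). For the response with U0126 minus that without it, 0.0% of all probe sets passed, so no difference between these 2 responses was called. The 2 TNFα arrays were the lowest of the 8. The call was lost without replicate 1 of DMSO (adjusted p = 0.0687) or of TNFα (0.0653).

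**Figure D5:**
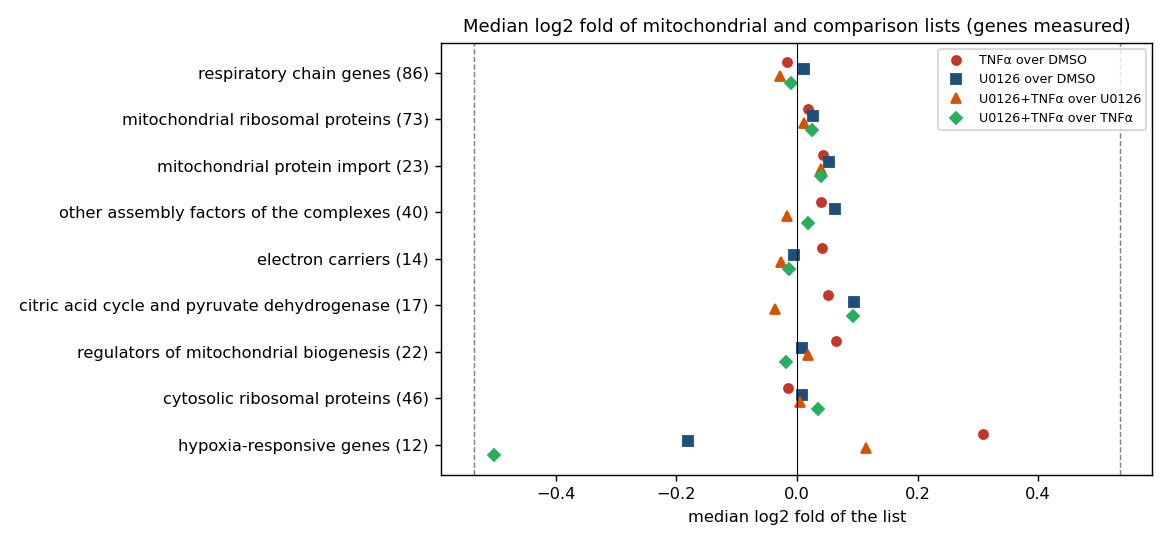
Median log2 fold of the 86 respiratory chain genes and of 8 other lists in 4 comparisons, with the number of genes measured in parentheses and the 1.45-fold threshold as dashed lines. The respiratory chain and the other mitochondrial lists stay within 0.1 of 0, and the hypoxia-responsive genes range from -0.50 to 0.31.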

How the data were processed

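RNA of 8 cultures was read on Affymetrix RAT230_2.0 arrays of 1 colour, with 2 biological replicates for each of 4 treatments. The deposited values are 1 linear intensity per probe set and array; the submitters' processing notes name RMA, and its version is not given in the sources used here. The study's methods add division by the 50th percentile of each chip and by DMSO, and neither is present in the deposited intensities (array medians of 365.1 to 378.2). The log2 values of each array were therefore shifted to a shared median, and intensities are printed on the linear scale after centring. Arrays have no read depth, so their number limits the precision, and no detection calls were used.

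The array's 2016 annotation gave the gene names. After removal of 57 controls from the 31099 probe sets, a gene was read through the probe set of highest mean among those naming 1 gene. All 86 member genes were found in the RefSeq gene table by Entrez identifier. All 8 arrays entered 1 linear model with terms for treatment and experiment (limma 3.58.1, R 4.3.3), whose moderated spread rests on 3 residual and 3.913 prior degrees of freedom. Benjamini-Hochberg adjustment ran over the 31042 probe sets of a comparison, separately for the 5 comparisons, with a threshold of 0.05. Intervals are 95% intervals of that fit. Replicate numbers come from the labels and the methods set each array against DMSO of its own experiment, so the number was used as a block: after removal of treatment means, arrays of the same number correlated at 0.728 to 0.829. The spread is that between 2 experiments. The fold rule asks for at least 1.45-fold, one way, in each experiment, and has no p value. The fit was tested on simulated data.

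Members and lists were chosen with earlier results of these data known. Members named with values are those past the test or the fold rule, the 3 largest rises and falls of each comparison that went the same way in both experiments, the isoform pairs of complex IV, complex II and the c subunit genes; other members named were chosen after their values were seen, as was the comparison with genes of a mean intensity over 1000. The alternatives left the arrays uncentred, normalized them by quantiles, dropped the dimmest 40 percent of probe sets, or used other priors, no block, only the arrays compared, all arrays but 1, 1 experiment alone, fold thresholds of 1.3 and 2, and other readings of a gene. Promoter windows came from RefSeq (GRCr8). Python 3.11.15 with pandas 2.3.3, numpy 2.4.6 and matplotlib 3.10.9 was used for the tables and figures.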

Additional observations from a re-analysis of the deposited data

How the results depend on the processing

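With the replicate number as a block or with no replicate block, limma called 0 of 86 members in all 5 comparisons. The fit without the block also lost every call of the other lists' genes named in the report (for Sdhaf1 with TNFα, adjusted p = 0.0732 in limma). It called 0 of the 8 chondrocyte markers with TNFα, so its 0 for the members tells little about them. Of 84 alternatives of the 5 counts of members called, 79 gave 0. The rest left out 1 TNFα array or fitted only the arrays compared. Counts over subunits only came from the reported fit and could not exceed its count of 0. For the difference of the responses to TNFα, 0.0% of all probe sets passed in the reported fit. The 79 are therefore not independent checks. The fit of only the arrays compared gave 1 of 86 for U0126+TNFα over U0126 (Cox6a2). With all 8 arrays 1.24% of all probe sets passed in this comparison, and the share in the smaller fit is not given here. The fold rule, which passed 0, 0, 0 and 1 members in TNFα over DMSO, U0126 over DMSO, U0126+TNFα over U0126 and U0126+TNFα over TNFα, passed 0, 1, 1 and 2 at 1.3-fold, 0 in the last at 2-fold, 1 in the first and 2 in the last by the mean fold, and with 1 experiment alone 0 to 3, 0 to 2, 0 to 1 and 1 to 3.

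The median log2 folds of the members are small beside their dependence on the scaling. With quantile normalization they were -0.087 for TNFα over DMSO, -0.026 for U0126 over DMSO and 0.026 for the difference of the responses to TNFα. For U0126 over DMSO the median was 0.0068 with the mean over a gene's probe sets and 0.0039 with subunits only. With 1 array or experiment left out the medians ranged from -0.030 to 0.0073 for TNFα over DMSO, from -0.0056 to 0.028 for U0126 over DMSO, from -0.027 to 0.021 for U0126+TNFα over TNFα and from -0.044 to 0.010 for the difference. For Cox6a2 in U0126 over DMSO, leaving out 1 array gave log2 folds of -0.034 (without replicate 2 of U0126) to 0.40. The cause was not tested, other than that fewer arrays enter such a fit. The filter on dim probe sets kept 83 of 86 members. With 2 arrays per treatment, values under background cannot be told from low expression, and a p that misses the threshold does not show that levels were equal.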
